A study of Mus musculus with 7 samples.

Results

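The genes described here are 10 genes of retinoic acid metabolism and reception. They are the retinaldehyde dehydrogenases *Aldh1a1*, *Aldh1a2* and *Aldh1a3*, the retinoic acid hydroxylases *Cyp26a1*, *Cyp26b1* and *Cyp26c1*, the retinoic acid receptors *Rara*, *Rarb* and *Rarg*, and the binding protein *Crabp1*. They were chosen by gene symbol for their roles in the pathway, by a rule that uses no measured value although earlier results of these data were known, and all 10 were found among the 24739 genes of the deposited table. Whole testes from C57BL/6 mouse embryos at embryonic day (E) 14.5 were compared between wild-type (n = 3) and *Glis3* zf5/zf5 mutant (n = 4) embryos, with 1 pair of testes per library. The zf5 allele is a constitutive deletion in the zinc finger region of *Glis3* that disrupts DNA binding by the encoded transcription factor, so all cells of the embryo carried it, and germ cells and somatic cells were not separated. Libraries were made from total RNA after removal of ribosomal RNA, without selection for poly-A tails, and the level of each gene was given as FPKM, a fragment count relative to the length of the transcript and the depth of the library.

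Retinoic acid is made from vitamin A. Retinol is first oxidized to retinaldehyde by alcohol and short-chain dehydrogenases, and the ALDH1A enzymes then oxidize retinaldehyde to retinoic acid, which CYP26 enzymes hydroxylate and so inactivate. The acid binds nuclear receptors (RARA, RARB and RARG) that sit on DNA as heterodimers with RXR proteins, while CRABP proteins carry it in the cytoplasm. In the fetal gonad, retinoic acid has been described as a signal for germ cells to enter meiosis, a role not examined here. In the fetal testis CYP26B1, made by somatic cells, is known to keep the level of retinoic acid low.

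The receptor heterodimers bind pairs of a short half-site set in the same direction, called direct repeats and named by the number of bases between the half-sites. The half-site searched was RGKTCA, in which R is A or G and K is G or T, on both strands and with spacers of 1 (DR1), 2 (DR2) or 5 (DR5) bases. RefSeq promoter windows on GRCm38.p6, from 250 bases before to 50 bases after each start, were found for 9 of the 10 genes (14 windows; *Aldh1a3* had none). A DR5 was present in 32 of all 32851 windows (0.0974%), and 2 of the 9 genes had one, *Rarb* and *Cyp26a1*. DR1 and DR2 were present in 0.222% and 0.268% of all windows and in no window of the 9 genes. The 100 bases before the start are given below for these 2 genes, with the DR5 in capitals, and for *Aldh1a1*, the most abundant gene of the set, which had no match. The *Rarb* sequence is from the minus strand of chr14:16575477-16575576, before a start inside the gene's longest locus, the *Cyp26a1* sequence from the plus strand of chr19:37697708-37697807, and the *Aldh1a1* sequence from the plus strand of chr19:20601868-20601967.
Rarb: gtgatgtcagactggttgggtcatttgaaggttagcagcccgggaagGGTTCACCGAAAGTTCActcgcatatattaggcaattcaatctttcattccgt
Cyp26a1: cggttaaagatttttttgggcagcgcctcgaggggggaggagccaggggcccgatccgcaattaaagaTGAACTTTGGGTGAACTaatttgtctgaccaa
Aldh1a1: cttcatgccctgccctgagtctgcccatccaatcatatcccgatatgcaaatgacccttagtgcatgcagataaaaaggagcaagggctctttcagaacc
The *Rarb* repeat lay on the strand of the gene, from 53 to 37 bases before the start. The *Cyp26a1* repeat lay on the opposite strand, from 32 to 16 bases before the start. Both genes are known to be induced by retinoic acid, and the match of letters is given here as a description of the sequence.

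Before the results, 2 features of the libraries bear on them. *Glis3* itself was at 7.63 and 6.89 FPKM in wild-type replicates 1 and 2, at 3.86, 3.26, 2.90 and 2.66 FPKM in mutant replicates 1 to 4, and at 2.91 FPKM in the library labelled wild-type replicate 3, so 1 library labelled wild-type lay within the mutant range. FPKM covers the whole gene, with the exons that the allele keeps, and results are given with and without it. *Rpph1*, the RNA component of RNase P, an RNA without a poly-A tail, was between 13630 and 58978 FPKM in wild-type replicate 1 and mutant replicates 1 and 2 and between 145711 and 174222 FPKM in the other 4 libraries, so values are also compared within these sets. The sum of FPKM per library was 694243 to 1018678. FPKM values carry no fragment counts, but the steps between the lowest values placed the depth of each library at 0.779 to 1 relative to wild-type replicate 1. Over the 13988 genes that averaged 0.5 FPKM or more, limma with Benjamini-Hochberg adjustment called 1 gene at an adjusted p under 0.05 (0.00715%), and 2379 genes had an unadjusted p under 0.05.

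Of the 10 genes, 8 passed the filter on low values, and none of the 8 was past the threshold of 0.05 after adjustment over all genes tested. By limma, 2 of the 8, *Aldh1a1* and *Aldh1a3*, had an unadjusted p under 0.05, both higher in the mutant, against 8.21% of all genes tested, and none had one in the lower direction, against 8.79%. *Aldh1a1* was the only one of the 8 with no overlap between groups, higher in the mutant as were 7.31% of all genes tested, and none was lower without overlap, against 7.59%. The median log2 fold change (mutant over wild-type, on log2(FPKM + 0.5)) of the 8 genes was 0.02, beside 0.01 over all genes tested. The plot of FPKM by library shows the 10 genes side by side.

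**Figure D1:**
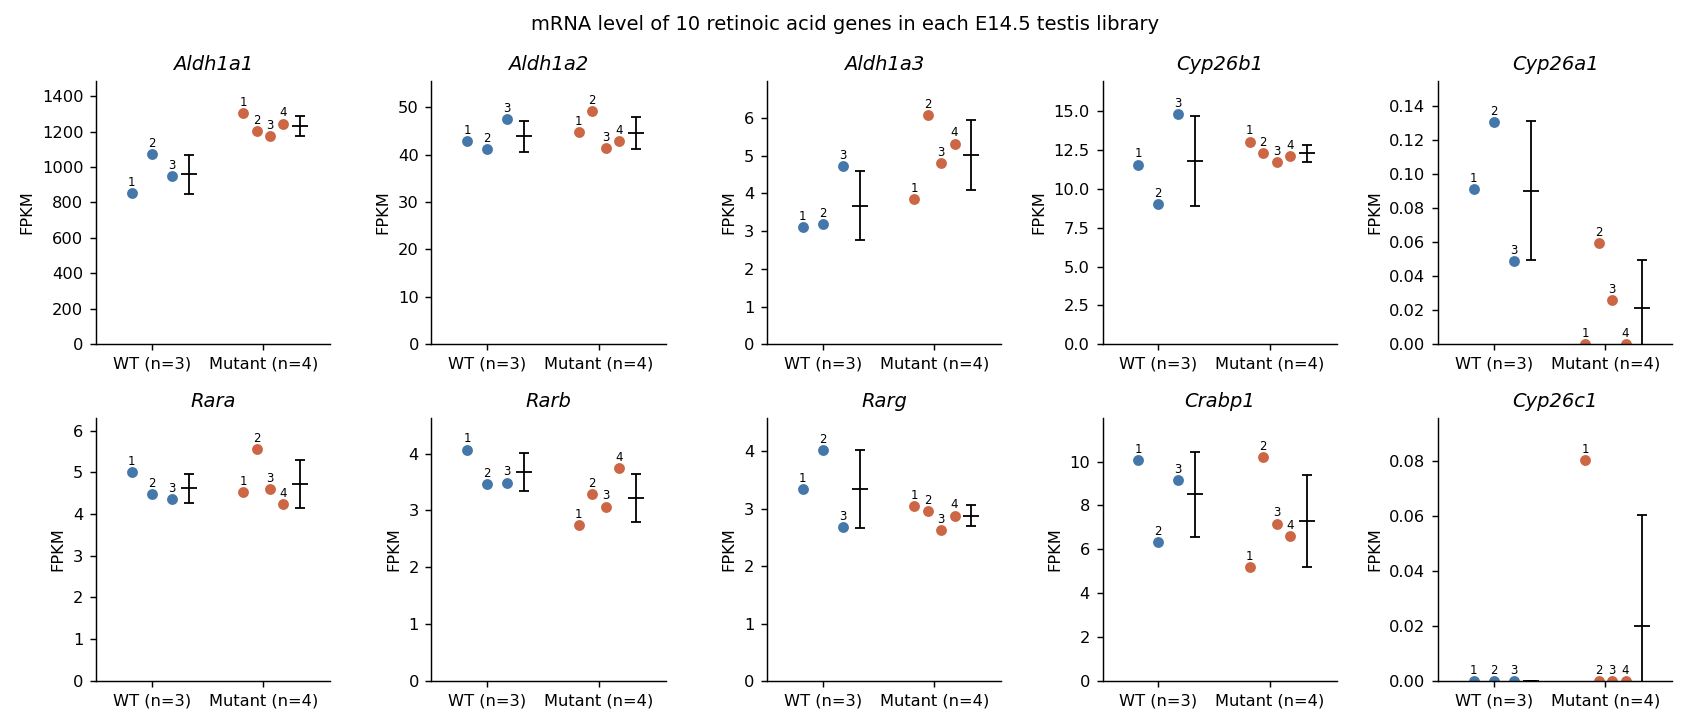
FPKM of the 10 genes in each library of E14.5 testis, on axes that start at 0. Blue points are wild-type (WT, n = 3) and orange points mutant (n = 4) libraries, numbered by replicate, and the bars give mean and SD, cut at 0 for *Cyp26a1* and *Cyp26c1*. The *Aldh1a1* points of the mutant, from 1176 to 1304 FPKM, all lie above the wild-type points, from 854 to 1075 FPKM, while the groups overlap in the other 9 genes.

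*Aldh1a1* (chromosome 19, 20601982 to 20643462, plus strand, mm10), which oxidizes retinaldehyde to retinoic acid, was by far the most abundant of the 10 genes. Its level was 854, 1075 and 949.5 FPKM in the wild-type libraries, by replicate number, and 1304, 1205, 1176 and 1245 FPKM in the mutant libraries. All 4 mutant libraries lay above all 3 wild-type libraries. The means were 959 ± 111 FPKM (SD, n = 3) in wild-type and 1232 ± 55.5 FPKM (SD, n = 4) in mutant testes, with p = 0.0286 in a two-sided exact permutation test, the smallest p that groups of 3 and 4 allow. The log2 fold change was 0.37 (SE 0.10, where SE is the standard error, 95% interval 0.13 to 0.60). After adjustment over all genes the difference was not past the threshold (limma, unadjusted p = 0.00628, adjusted p = 0.183). In these whole testes, more cells that express a gene and more RNA per cell cannot be told apart, here and for all genes below. When the library labelled wild-type replicate 3 was left out, the log2 fold change was 0.36 (limma, adjusted p = 0.118). Within the 3 libraries with less *Rpph1*, 854 FPKM in the wild-type library stood beside 1304 and 1205 FPKM in the mutant libraries, and within the other 4 libraries 1075 and 949.5 FPKM stood beside 1176 and 1245 FPKM. The value depended on which scaling was used. Quantile normalization brought the log2 fold change to 0.10 (limma, unadjusted p = 0.335), while centring on the median gene left it at 0.38.

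A second readout of *Aldh1a1* was available in the deposited read counts of repeat elements, which were assigned to genes here where the element lay wholly in the body of 1 gene only. Such elements are mainly intronic, so these reads come largely from unspliced RNA. The *Aldh1a1* body held 25 elements, with 575, 548 and 590 reads in wild-type replicates 1 to 3 and 616, 588, 525 and 561 reads in mutant replicates 1 to 4. Scaled to the effective size of each library (CPM, with TMM factors over all gene bodies), these were 146, 186 and 174 CPM in wild-type and 207, 209, 185 and 187 CPM in mutant libraries. The highest wild-type library, replicate 2, lay just above mutant replicate 3, so the groups overlapped. The means were 168 ± 20.7 CPM (SD, n = 3) and 197 ± 13 CPM (SD, n = 4; exact permutation test, p = 0.0571), which gave a log2 fold change of 0.23 (SE 0.10; edgeR quasi-likelihood test, unadjusted p = 0.0345, adjusted p = 0.363). Among all 12267 gene bodies tested by edgeR, 6.65% had an unadjusted p under 0.05 in the same direction and 0.00815% an adjusted p under 0.05. Leaving out wild-type replicate 1 brought the log2 fold change to 0.13 (edgeR quasi-likelihood test, adjusted p = 0.746).

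Values of cell type markers in the same libraries are set beside *Aldh1a1*, beginning with Leydig cells, which make steroid hormones in the interstitium. Of 8 fetal Leydig cell markers, 7 had a positive fold change and 6 an unadjusted p under 0.05 by limma (8.21% of all genes tested in this direction), none past the threshold after adjustment, and their median log2 fold change was 0.44. Their summed level was 1661 to 2733 FPKM in wild-type and 2587 to 3165 FPKM in mutant libraries, with wild-type replicate 2 in the mutant range. *Insl3*, a peptide hormone of Leydig cells, was at 189.6, 255 and 199 FPKM in wild-type and 389, 321, 305 and 335 FPKM in mutant libraries (log2 fold change 0.66, SE 0.12; limma, adjusted p = 0.133). The level of *Aldh1a1* relative to *Insl3* was 4.21 to 4.78 in wild-type and 3.35 to 3.85 in mutant libraries, without overlap between groups. *Insl3* had the largest fold change of the 8 markers, so a lower ratio to it in the mutant follows from that choice. *Cyp11a1* is the enzyme of the first step of steroid synthesis. Relative to *Cyp11a1*, the level of *Aldh1a1* was 1.52 to 2.05 in wild-type and 1.51 to 1.67 in mutant libraries, with overlap. Of 10 Sertoli cell markers, 8 had a positive fold change and 1 an unadjusted p under 0.05 (8.21% of all genes), with a summed level of 1032 to 1308 FPKM in wild-type and 1256 to 1436 FPKM in mutant libraries. All 10 germ cell markers had a negative fold change, 7 with an unadjusted p under 0.05 by limma (8.79% of all genes in this direction) and none past the threshold, and their summed level was 872 to 1716 FPKM in wild-type and 706 to 801 FPKM in mutant libraries. *Ddx4* and *Mael* of this list were reported as reduced in these libraries by the study itself, so their direction is no independent evidence. The study also reported *Boll*, *Hormad1* and *Lefty2* as unchanged, and germ cell numbers at this stage as not different between genotypes. When the library labelled wild-type replicate 3 was left out, 6 of the 10 germ cell markers were past the threshold by limma, all lower. So were 1 Leydig marker (*Nr5a1*) and 1 Sertoli marker (*Ptgds*), both higher. That setting brought the number of all genes past the threshold from 1 to 722. The library left out had been set apart by its low *Glis3*. Its summed germ cell marker level was also the lowest in wild-type, 872 FPKM beside 1716 and 1256 FPKM. Leaving it out therefore widens the germ cell difference by construction, and these calls are no separate evidence for it. Interstitial and peritubular markers (9 genes) had a median log2 fold change of 0.15, macrophage markers (5 genes) 0.20, adrenal cortex markers (4 genes) 0.40, blood cell markers (4 genes tested) 0.02, endothelial markers (5 genes) -0.02, markers of the coelomic surface epithelium (6 genes) -0.0020 and mesonephric and duct markers (6 genes tested) -0.04. *Pax2*, a defining gene of the mesonephric ducts, was listed at 0 in 5 libraries and at 0.0163 and 0.0162 FPKM in the other two. The part of these cell types in the *Aldh1a1* values was not tested.

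**Figure D2:**
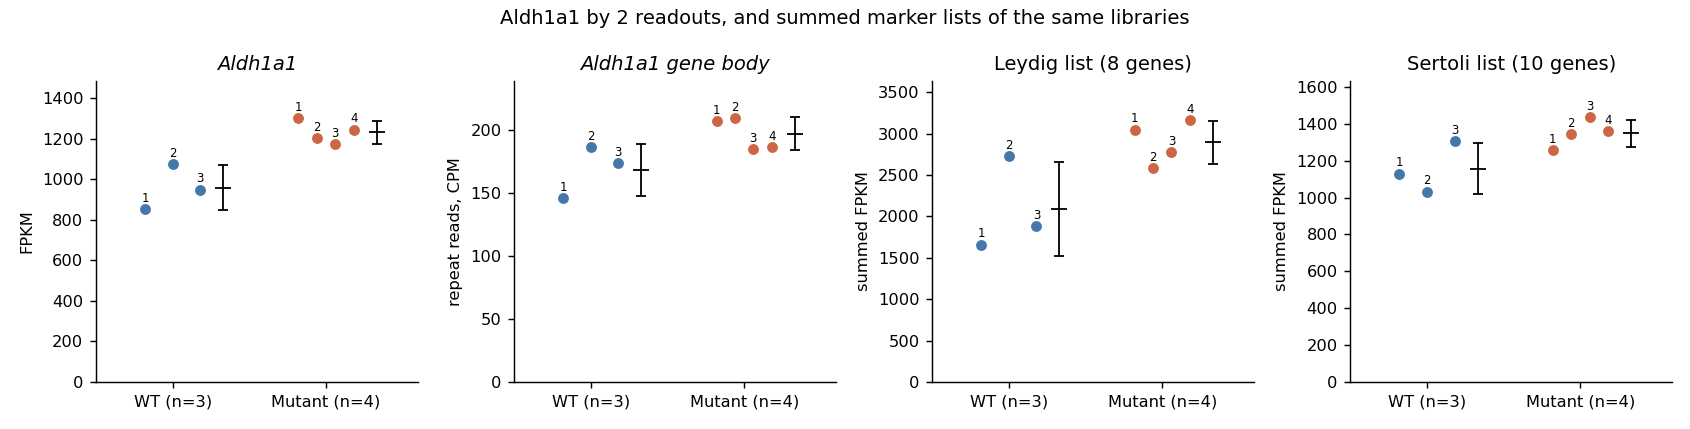
*Aldh1a1* mRNA (FPKM), reads of repeat elements in the *Aldh1a1* gene body (CPM), and summed FPKM of 8 fetal Leydig and 10 Sertoli cell markers in each library, on axes that start at 0. Points are libraries numbered by replicate (blue, wild-type, n = 3; orange, mutant, n = 4) and bars are mean and SD. Wild-type replicate 1 is lowest in the first 3 panels, and only the *Aldh1a1* mRNA panel shows no overlap between groups.

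*Aldh1a2* (chromosome 9, 71215789 to 71296243, plus strand), which is the main enzyme of retinoic acid synthesis in most of the early embryo, was the second most abundant gene of the set. It was at 42.8, 41.2 and 47.6 FPKM in wild-type and 44.8, 49.2, 41.4 and 42.9 FPKM in mutant libraries. The ranges of both groups were nearly the same, and the log2 fold change was 0.02 (SE 0.08; limma, adjusted p = 0.915), with a 95% interval from 0.896-fold to 1.15-fold. Its gene body held 57 repeat elements, whose reads gave a log2 fold change of -0.01 (SE 0.12; edgeR quasi-likelihood test, adjusted p = 0.987).

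*Aldh1a3* (chromosome 7, 66390893 to 66427477, minus strand), the third enzyme of this family, was low, at 3.10, 3.18 and 4.73 FPKM in wild-type and 3.86, 6.07, 4.81 and 5.33 FPKM in mutant libraries. The library labelled wild-type replicate 3 lay among the mutant libraries, above mutant replicate 1, and the groups overlapped. The log2 fold change was 0.41 (SE 0.18, 95% interval 0.01 to 0.81; limma, unadjusted p = 0.0463, adjusted p = 0.287), and an exact permutation test of the means gave p = 0.114. When the library labelled wild-type replicate 3 was left out, the log2 fold change was 0.58 (limma, unadjusted p = 0.00719, adjusted p = 0.0798). An unadjusted p under 0.05 was obtained for *Aldh1a3* under 7 of 17 alternative fits (other pseudocounts, filters and scalings, added terms, or 1 library left out), compared with 16 of 17 for *Aldh1a1* and none of 17 for *Aldh1a2*. These fits reuse the same libraries and are not independent. At the level of *Aldh1a1*, other pseudocounts and filters left the log2 fold change at 0.37, and the exception was quantile normalization (0.10). Repeat reads in the *Aldh1a3* body were few, 17 to 46 reads per library, and gave a log2 fold change of 0.30 (SE 0.31; edgeR quasi-likelihood test, adjusted p = 0.745).

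Because FPKM is scaled to transcript length, levels can also be set side by side between genes. *Aldh1a1* made up 94.8 to 96.4% of the summed FPKM of the 3 synthesis enzymes over the 7 libraries, *Aldh1a2* 3.31 to 4.76% and *Aldh1a3* 0.284 to 0.482%. The order of mean FPKM over all libraries was *Aldh1a1* (1115), *Aldh1a2* (44.3), *Cyp26b1* (12.1), *Crabp1* (7.81), *Rara* (4.68), *Aldh1a3* (4.44), *Rarb* (3.41), *Rarg* (3.08), *Cyp26a1* (0.0509) and *Cyp26c1* (0.0115). Neighbours in this order had ranges over the 7 libraries that did not overlap only for *Aldh1a1* and *Aldh1a2*, *Aldh1a2* and *Cyp26b1*, and *Rarg* and *Cyp26a1*. *Rara* was above *Aldh1a3* in 3 of 7 libraries, and *Rarb* above *Rarg* in 5 of 7.

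Among the enzymes that inactivate retinoic acid, *Cyp26b1* (chromosome 6, 84571414 to 84593908, minus strand) made up 98.6 to 100% of the summed FPKM in every library. It was at 11.6, 9.0 and 14.8 FPKM in wild-type and 13.1, 12.3, 11.8 and 12.1 FPKM in mutant libraries. All 4 mutant libraries lay between the lowest wild-type library, replicate 2, and the highest, the library labelled wild-type replicate 3. The means were 11.8 ± 2.92 FPKM (SD, n = 3) and 12.3 ± 0.547 FPKM (SD, n = 4), which gave a log2 fold change of 0.08 (SE 0.14; limma, adjusted p = 0.794). The 95% interval ran from 0.845-fold to 1.33-fold, and the libraries do not resolve differences within these bounds. When the library labelled wild-type replicate 3 was left out, the log2 fold change was 0.26 (limma, unadjusted p = 0.0445, adjusted p = 0.198), and without wild-type replicate 2 it was -0.09 (adjusted p = 0.681), so its direction depended on single wild-type libraries.

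The related enzymes were at the limit of detection. *Cyp26a1* (chromosome 19, 37697808 to 37701536, plus strand) was at 0.0913, 0.131 and 0.0488 FPKM in wild-type libraries, at 0.0594 and 0.0261 FPKM in mutant replicates 2 and 3, and listed at 0 in mutant replicates 1 and 4. After scaling to relative depth, these values lay within 0.0608 of whole multiples of the lowest one, and taken as 1 fragment per step they came to 4, 5 and 2 fragments in wild-type and 0, 2, 1 and 0 fragments in mutant libraries, or 11 and 3 in all. An exact permutation test of the FPKM gave p = 0.0857. *Cyp26c1* (chromosome 19, 37685680 to 37693307, plus strand), its neighbour on the chromosome, was listed at 0 in all libraries but mutant replicate 1, which had 0.0806 FPKM. Neither gene was tested by limma, since both averaged under 0.5 FPKM, and no repeat element was assigned to *Cyp26a1*.

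The ratio of the summed FPKM of the synthesis enzymes to that of the CYP26 enzymes was 77.2, 122.6 and 67.3 in wild-type replicates 1 to 3 and 103, 102, 104 and 107 in mutant replicates 1 to 4. The 4 mutant values lay close together and inside the wild-type range. With *Aldh1a2* and *Cyp26b1* alone, the ratio was 3.21 to 4.58 in wild-type and 3.43 to 4.0 in mutant libraries, again with overlap.

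All 3 receptors were detected in every library, and their groups overlapped. *Rara* (chromosome 11, 98937696 to 98974942, plus strand) was at 5.0, 4.48 and 4.36 FPKM in wild-type and 4.52, 5.56, 4.59 and 4.24 FPKM in mutant libraries, with a log2 fold change of 0.03 (SE 0.11; limma, adjusted p = 0.917; 95% interval 0.863-fold to 1.21-fold). *Rarb* (chromosome 14, 16430840 to 17082331, minus strand) was at 4.07, 3.47 and 3.49 FPKM in wild-type and 2.75, 3.28, 3.07 and 3.75 FPKM in mutant libraries. Mutant replicate 4 lay above 2 wild-type libraries, and the log2 fold change was -0.17 (SE 0.12; limma, adjusted p = 0.468; 95% interval 0.739-fold to 1.06-fold). *Rarg* (chromosome 15, 102234938 to 102257522, minus strand) was at 3.34, 4.03 and 2.68 FPKM in wild-type and 3.05, 2.97, 2.63 and 2.88 FPKM in mutant libraries. Its lowest wild-type value was that of the library labelled wild-type replicate 3. The log2 fold change of *Rarg* was -0.17 with all libraries (SE 0.13; limma, adjusted p = 0.520) and -0.30 without that library (limma, unadjusted p = 0.0297, adjusted p = 0.159).

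Of the summed FPKM of the 3 receptors, *Rara* made up 37.4 to 41.4% in wild-type and 39.0 to 47.1% in mutant libraries, *Rarb* 29.0 to 33.2% and 26.6 to 34.5%, and *Rarg* 25.4 to 33.6% and 25.1 to 29.5%. *Rara* had the largest share in each library, but the shares of all 3 were of the same order. The body of *Rarb*, which spans a long locus, held 552 repeat elements with 112 to 345 reads per library. These gave a log2 fold change of -0.13 (SE 0.25; edgeR quasi-likelihood test, adjusted p = 0.885), which was 0.20 without wild-type replicate 1, the library with 345 reads. For *Rara* and *Rarg*, with 26 elements each, the log2 fold changes from repeat reads were 0.07 and -0.51 (SE 0.19 and 0.42; edgeR quasi-likelihood test, adjusted p = 0.922 and 0.667).

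*Crabp1* (chromosome 9, 54764748 to 54773110, plus strand), a cytoplasmic carrier of retinoic acid, varied most among the 8 genes tested, over a range of 0.91 in log2(FPKM + 0.5). It was at 10.05, 6.31 and 9.14 FPKM in wild-type and 5.19, 10.2, 7.17 and 6.60 FPKM in mutant libraries. The highest and the lowest library were both mutant, and the log2 fold change was -0.22 (SE 0.22; limma, adjusted p = 0.640; 95% interval 0.604-fold to 1.22-fold). The 3 genes whose profile over the 7 libraries came closest, each centred on its own mean, were *Hoxa5*, *Sh3bp1* and *Egln3*, with root-mean-square differences of 0.15, 0.16 and 0.16 on the log2 scale. These were the nearest of all genes tested and are given as a description.

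Its close relative *Crabp2*, which delivers retinoic acid to nuclear receptors, was one of 41 further genes of retinoid transport, storage, metabolism and signalling that were examined as a list. *Crabp2* was at 13.4, 14.6 and 12.5 FPKM in wild-type and 11, 11.1, 10.3 and 11 FPKM in mutant libraries. All mutant libraries lay below all wild-type libraries, and the log2 fold change was -0.30 (SE 0.07; limma, unadjusted p = 0.00303, adjusted p = 0.169), which became -0.36 (limma, adjusted p = 0.0429) when the library labelled wild-type replicate 3 was left out. That setting also brought the number of genes past the threshold from 1 to 722. The summed level of *Crabp1* and *Crabp2* was 20.9 to 23.5 FPKM in wild-type and 16.2 to 21.3 FPKM in mutant libraries.

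Of the 41 genes, 32 passed the filter on low values. None was past the threshold after adjustment, 4 were higher and 1 lower with an unadjusted p under 0.05 by limma, the same 5 had groups that did not overlap, beside 8.21% higher and 8.79% lower by p and 7.31% and 7.59% without overlap among all genes tested, and the median log2 fold change of the 32 genes was 0.04. Among the 4 genes with higher levels in the mutant were *Rdh11* and *Rdh5*, dehydrogenases that interconvert retinol and retinaldehyde, and *Aox1*, an aldehyde oxidase. *Rdh11* was at 36.7, 43.4 and 42.2 FPKM in wild-type and 51.9, 46.5, 46.5 and 47.7 FPKM in mutant libraries (log2 fold change 0.24, SE 0.08; limma, unadjusted p = 0.0127, adjusted p = 0.204). *Rdh5* was at 0.870 to 0.984 FPKM in wild-type and 1.10 to 1.39 FPKM in mutant libraries (log2 fold change 0.31; limma, adjusted p = 0.241). *Aox1* was at 0.749 to 0.910 FPKM and 1.01 to 1.15 FPKM (log2 fold change 0.28; limma, adjusted p = 0.255). The differences of these 3 genes were small, between 0.24 and 0.31 on the log2 scale.

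The most abundant genes of 6 roles in this list were in the overlapping majority. For esterification the most abundant was *Dgat1* (mean 15.8 FPKM over all libraries), and for retinol oxidation *Adh5* (259 FPKM). Among other oxidases it was *Cyp1b1* (15.8 FPKM), among other carriers *Fabp5*, which binds fatty acids and retinoic acid (48.6 FPKM), among partners of the receptors *Rxrb* (35.1 FPKM), and among cofactors *Ncor1* (17.7 FPKM). The log2 fold changes of these 6 genes ran from -0.10 (*Rxrb*) to 0.09 (*Adh5*), and none had an unadjusted p under 0.05. The plot of fold changes gives the intervals.

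**Figure D3:**
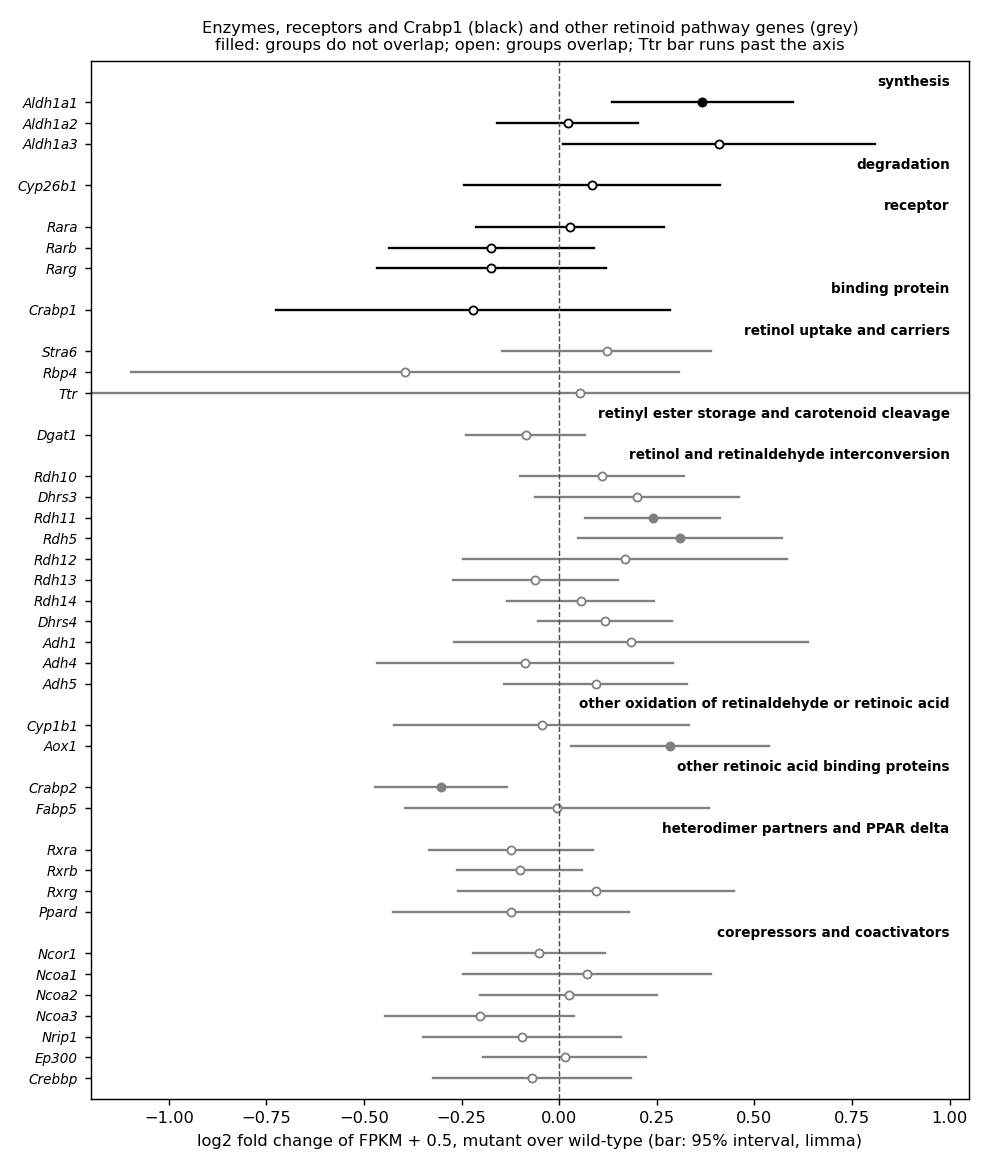
Log2 fold change of FPKM + 0.5 (mutant over wild-type, x axis) for 8 of the 10 genes (black) and other retinoid pathway genes (grey), grouped by role. Points are limma estimates, filled where the groups do not overlap, and bars are 95% intervals, of which that of *Ttr* runs past the axis. The interval of *Aldh1a1* lies between 0.13 and 0.60 and that of *Crabp2* lies below 0, while most others span 0.

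A list of 15 genes known to respond to retinoic acid, of which 14 were in the table and 9 passed the filter, held *Rarb* and *Crabp2* as well. By limma, 2 were higher and 1 lower with an unadjusted p under 0.05 (8.21% and 8.79% of all genes tested), none was past the threshold, and the median log2 fold change was 0.11. The 2 higher genes were *Stra8* and *Rec8*, which act in the entry of germ cells into meiosis and which the study had itself picked from these libraries, so that their direction here is no independent evidence. The study also reported both as higher by qPCR. At a later embryonic stage it found no cells positive for STRA8 or SYCP3 protein in mutant testes. *Stra8* was at 1.08, 0.601 and 0.0911 FPKM in wild-type and 2.06, 1.96, 1.40 and 1.98 FPKM in mutant libraries (log2 fold change 1.21, SE 0.30; limma, adjusted p = 0.170). Its lowest value was that of the library labelled wild-type replicate 3, without which the log2 fold change was 0.83 (limma, adjusted p = 0.0523). *Rec8* was at 2.53 to 3.51 FPKM in wild-type and 4.71 to 5.58 FPKM in mutant libraries (log2 fold change 0.69; limma, adjusted p = 0.112). The other gene without overlap was *Crabp2*, which was lower. *Tgm2*, the most abundant somatic gene of the list (98.5 FPKM on average), had a log2 fold change of 0.07 (limma, adjusted p = 0.660).

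Genes listed around *Cyp26b1* in the fetal gonad were also examined, and an action on *Cyp26b1* was not tested for any of them. *Nr5a1*, a transcription factor of steroidogenic and Sertoli cells, was at 57.7, 66.3 and 77.0 FPKM in wild-type and 82.3, 79.96, 76.3 and 82.1 FPKM in mutant libraries. The library labelled wild-type replicate 3 overlapped with the mutant libraries, and the log2 fold change was 0.27 (SE 0.09; limma, unadjusted p = 0.0207, adjusted p = 0.225), which without that library was 0.37 (adjusted p = 0.0364). *Sox9*, a transcription factor of Sertoli cells, was at 5.84 to 8.65 FPKM in wild-type and 6.90 to 8.62 FPKM in mutant libraries (log2 fold change 0.16; limma, adjusted p = 0.611). *Fgf9* and its receptor *Fgfr2* had log2 fold changes of -0.16 and 0.16 (limma, adjusted p = 0.603 and 0.389), and *Dmrt1* -0.20 (adjusted p = 0.546). *Foxl2*, a factor of the fetal ovary, was at or under 0.0964 FPKM in every library. *Nanos2*, a germ cell gene that holds back *Stra8*, was at 16.2 and 20.1 FPKM in wild-type replicates 1 and 2, at 9.63, 4.27, 2.02 and 1.81 FPKM in the mutant libraries and at only 1.06 FPKM in the library labelled wild-type replicate 3. With 1 wild-type library below all mutant libraries, its log2 fold change was -0.99 (SE 0.89; limma, adjusted p = 0.598), and -2.18 without that library (adjusted p = 0.0632).

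**Figure D4:**
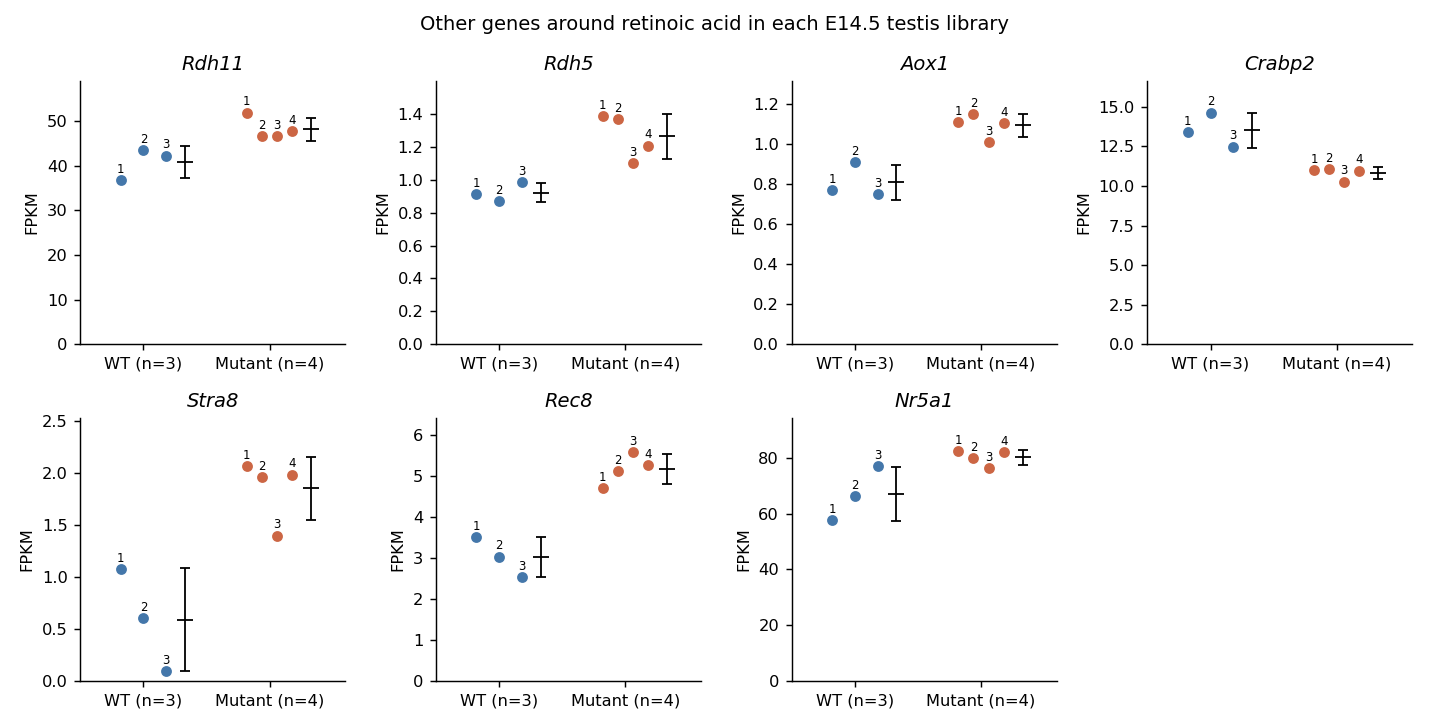
FPKM of 7 genes around the retinoic acid pathway in each library of E14.5 testis, on axes that start at 0, with wild-type (blue, n = 3) and mutant (orange, n = 4) points numbered by replicate and bars of mean and SD. The groups do not overlap for the first 6 genes, of which *Crabp2* is lower in the mutant, and overlap for *Nr5a1* through 1 wild-type library at 77.0 FPKM.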

How the data were processed

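RNA-Seq data of E14.5 testes from 7 embryos, 3 wild-type and 4 mutant, were used, with groups and replicate numbers from the sample labels. The authors aligned reads to mm10 with TopHat2 2.0.12 and made FPKM values per RefSeq gene with the Cufflinks tools, and the deposited FPKM table includes the library scaling of that workflow. The authors also deposited counts of uniquely mapped reads per RepeatMasker element (HTSeq), which are not normalized, with 3454317 to 4670830 reads per library. In both tables the header lacks the tab between WT_rep3 and Mutant_rep1, so columns were read in the order of the names. All columns of libraries were used.

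FPKM values were tested as log2(FPKM + 0.5) with limma 3.58.1 (two-sided, lmFit and trended eBayes; R 4.3.3). The 13988 genes that averaged 0.5 FPKM or more were tested, and an adjusted p (Benjamini-Hochberg) under 0.05 was called. On this scale, changes of low genes come out too small. Repeat reads were summed per gene body (GENCODE M21 and the RefSeq loci, bedtools 2.31.1) and compared by quasi-likelihood in edgeR 4.0.16 (TMM factors, at least 10 reads on average). Exact permutation tests (two-sided) were used for single values. On simulated FPKM data for the same 13988 genes, 183 of 200 genes changed by 1.5 on the log2 scale (91.5%) and 10 unchanged genes were called, and on simulated repeat sums for 12267 gene bodies 138 of 200 genes changed 2-fold (69%) and 7 unchanged genes. Noise was drawn independently for each gene, without the sets of libraries described above. The log2 fold changes of the 8 genes tested by FPKM were smaller, -0.22 to 0.41, so these shares do not give the power to call them. Promoter windows were those of RefSeq (GRCm38.p6), searched in Python 3.11.15. The alternatives were pseudocounts of 0.1 and 1, filters of 0 and 2 FPKM, quantile normalization, median centring, no trend, array weights, a replicate block and leaving out each library, with DESeq2 1.42.0, its size factors, library size only and elements free of exons for repeat sums. A term for the *Rpph1* sets was added after the data were seen. All pairs of libraries of a group differed by more than counting noise in their repeat reads.

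The genes, by their roles, and the gene lists were chosen with earlier results of these data known. Named are all 10 genes and the genes listed around *Cyp26b1*. From the pathway and responsive lists, genes with an unadjusted p under 0.05, without overlap of groups or with the highest mean level of their role are named. *Insl3*, *Cyp11a1* and *Ptgds* were named after their values were seen, and some genes that the rule names are not reported here. *Meiosin* was not analysed here. The study compared genes with Cuffdiff, which was not run here.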

Additional observations from a re-analysis of the deposited data

Results flagged for a closer look

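In 4 of 40 groups of mutant libraries examined, 1 library stood apart from the other 3 by a gap wider than Dixon's 95% critical value, which chance gives for about 1 in 20 groups. *Cyp26c1* was at 0.0806 FPKM in mutant replicate 1 and listed at 0 in the others. *Crabp2* had its lowest mutant value, 10.3 FPKM, in mutant replicate 3. *Stra8* had its lowest mutant value, 1.40 FPKM, in the same library, still above all wild-type libraries. *Fgfr2* had its highest mutant value, 20.8 FPKM, in mutant replicate 2.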

How the results depend on the processing

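With 3 and 4 libraries and no fragment counts behind the FPKM values, small differences of single genes could not be resolved, as the intervals above show. Of 37 results with a fold change, 21 kept their direction and their side of the threshold under every alternative, as did 568 of 597 alternatives of them. None of the 37 was past the threshold as reported, so keeping their side meant only that they stayed uncalled. The count of genes past the threshold (1) was 4 without a filter, 3 with quantile normalization, 0 with the replicate block, and 1 to 722 without single libraries, the highest without the library labelled wild-type replicate 3. Of the 10 genes, 2 had an unadjusted p under 0.05, a count that was 0 with quantile normalization, 1 without a trend, with array weights or with the replicate block, and 1 to 4 without single libraries. For the 41 other pathway genes the count (5) was 3 with a mean of at least 2 FPKM or array weights, 1 with the replicate block, and 2 to 5 without single libraries, and for the responsive genes (3) it was 2 to 4 over all alternatives. The count of gene-body repeat sums past the threshold (1) was 48 with DESeq2, 47 without a filter, 27 with elements free of exons, 0 with the replicate block, and 0 to 138 without single libraries. The deviations of same-numbered libraries had weak correlations without a common sign (0.20, -0.18 and 0.23 for replicates 1 to 3), so the numbers were not taken to pair them. Libraries numbered 1 shared an *Rpph1* set, as did those numbered 3, while those numbered 2 did not. Whether the sets account for these correlations was not tested. Apart from the counts above, the replicate block changed no adjusted call of a gene named here.

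Without single libraries the log2 fold changes were 0.29 to 0.45 for *Aldh1a1*, -0.026 to 0.081 for *Aldh1a2*, 0.31 to 0.58 for *Aldh1a3*, -0.088 to 0.26 for *Cyp26b1*, -0.045 to 0.082 for *Rara*, -0.24 to -0.11 for *Rarb*, -0.30 to -0.049 for *Rarg* and -0.41 to -0.083 for *Crabp1*. The ranges that crossed 0 among the other genes were -0.020 to 0.17 for *Adh5*, -0.20 to 0.18 for *Cyp1b1*, -0.11 to 0.14 for *Fabp5* and -0.12 to 0.015 for *Ncor1*. *Fabp5* also turned sign with median centring (0.0060), array weights (0.0048) and the *Rpph1* term (0.060). For repeat reads the ranges that crossed 0 were -0.12 to 0.056 for *Aldh1a2*, which also turned with elements free of exons (0.018), -0.041 to 0.84 for *Aldh1a3*, -0.80 to 0.50 for *Cyp26b1*, -0.050 to 0.18 for *Rara* and -0.37 to 0.20 for *Rarb*. The cause was not tested. Without the library labelled wild-type replicate 3, *Crabp2* (-0.36), *Rec8* (0.59), *Nr5a1* (0.37) and *Glis3* (-1.09) passed the threshold, as did 6 germ cell markers and 1 Sertoli cell marker. That library was set apart by its low *Glis3* and had the lowest wild-type germ cell marker sum, so the *Glis3* and germ cell calls follow in part from leaving it out. Scaling moved the median of all genes little, from 0.008 as deposited to 0.014 with quantile normalization and 0.020 with centring.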
